A study of Mus musculus with 12 samples.

Results

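Transcript levels of 6 Fc receptor genes were followed in bone marrow-derived dendritic cells (BMDCs): Fcgr1, Fcgr3, Fcgr4, Fcgr2b, Fcer1g and Fcgrt. They were selected by gene symbol alone and are 6 of the 41709 genes in the count tables. Bone marrow cells were grown for 10 days with GM-CSF. The donors were either CD18fl/fl mice without Cre or CD18CD11c cKO mice, in which Cre under the CD11c promoter removes exon 3 of the floxed CD18 gene (Itgb2). Both genotypes carry the floxed allele, so the Cre transgene is what sets them apart. The cells were left untreated or received 100 ng/mL LPS, a Toll-like receptor 4 ligand, for 24 h per the labels. MHCII+ cells were then isolated on magnetic beads, and poly(A) RNA was sequenced. There were 3 libraries per group and 12 in all, and nothing in the sources used here says whether the replicates came from separate animals, so p-values measure the spread between these libraries only. CD11c promoter activity restricts the deletion to CD11c+ cells, and other cells in the culture keep CD18.

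Fc receptors are the proteins by which leukocytes sense antibody. The γ receptors bind the Fc part of IgG in immune complexes. The ligand-binding α chains of FcγRI (Fcgr1, high affinity), FcγRIII (Fcgr3, low affinity) and FcγRIV (Fcgr4, intermediate affinity) carry no signalling motif of their own and rely on the common γ chain Fcer1g, whose ITAM recruits the kinase Syk. FcγRIIb (Fcgr2b) is the inhibitory counterpart: its ITIM recruits the phosphatase SHIP1 and dampens ITAM signals. Fcgrt encodes the heavy chain of the neonatal receptor FcRn, a relative of MHC class I molecules that pairs with β2-microglobulin (B2m) inside endosomes and protects IgG and albumin from degradation. In dendritic cells the balance of activating over inhibitory FcγRs is known to set the threshold at which immune complexes trigger maturation, and FcRn routes immune complexes towards antigen presentation.

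Fcgr3, Fcgr4, Fcgr2b and Fcer1g lie on chromosome 1, Fcgr1 on chromosome 3 and Fcgrt on chromosome 7. In the deposited GRCm39 coordinates, Fcgr2b (ENSMUSG00000026656) spans chr1:170786186-170804116 on the minus strand, Fcgr4 (ENSMUSG00000059089) chr1:170846489-170857330 on the plus strand, Fcgr3 (ENSMUSG00000059498) chr1:170878743-170892504 on the minus strand and Fcer1g (ENSMUSG00000058715) chr1:171057141-171061934 on the minus strand. Fcgr1 (ENSMUSG00000015947) spans chr3:96190225-96201285 and Fcgrt (ENSMUSG00000003420) chr7:44742414-44753275, both on the minus strand. All 6 are protein-coding.

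Fcgr3 and Fcgr2b are close relatives whose extracellular parts resemble each other, and the opposite signals they give make it matter whether a short read can tell them apart. The longest stretch found that transcripts of both genes share without a mismatch is 129 bases. Runs were searched in part of the annotated transcripts of Fcgr3, Fcgr2b and Fcgrt and in all those of the other genes. The stretch is shown because a read of 59 bases lying within it cannot be assigned to either gene. In Fcgr3 it is split over 2 exons within chr1:170881736-170885361, in Fcgr2b over 2 exons within chr1:170794243-170795650 (GRCm39, minus strand), and it is wholly coding in 11 of the 16 annotated Fcgr3 transcripts and in 8 of the 13 Fcgr2b transcripts.
shared run of Fcgr3 and Fcgr2b: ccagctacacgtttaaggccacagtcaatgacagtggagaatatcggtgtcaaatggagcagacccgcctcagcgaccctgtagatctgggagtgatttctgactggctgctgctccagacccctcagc
Of the windows of 59 bases in the annotated transcripts, 6.16% for Fcgr3 and 8.57% for Fcgr2b also occurred in another gene. Fcgr1, Fcgr4, Fcer1g and Fcgrt had no shared window, and the longest run between any other pair of the 6 genes was 14 bases in the transcripts searched. Counted reads with more than 1 mapping position made up at most 0.972% of the reads of Fcgr3 and 1.59% of those of Fcgr2b in any library.

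The 150 bases before the RefSeq transcription start (GRCm38.p6, all 6 genes matched by symbol) are shown for the activating chains, which share a short motif, and for Fcgr2b and Fcgrt, whose levels moved with LPS. Capitals mark GAGGAAG, the core of a PU.1-type box (CTTCCTC on the printed strand), and TTCNNNGAA, the palindrome of a GAS element. PU.1 is the master transcription factor of myeloid cells, and GAS elements are bound by STAT dimers.
Fcgr1, chr3:96293970-96294119, minus strand: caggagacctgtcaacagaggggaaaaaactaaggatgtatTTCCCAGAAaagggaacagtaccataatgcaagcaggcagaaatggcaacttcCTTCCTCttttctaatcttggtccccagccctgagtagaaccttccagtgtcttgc
Fcgr3, chr1:171059395-171059544, minus strand: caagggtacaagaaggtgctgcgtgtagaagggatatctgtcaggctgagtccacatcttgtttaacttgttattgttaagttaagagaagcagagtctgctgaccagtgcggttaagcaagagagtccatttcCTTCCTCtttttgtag
Fcgr4, chr1:171018776-171018925, plus strand: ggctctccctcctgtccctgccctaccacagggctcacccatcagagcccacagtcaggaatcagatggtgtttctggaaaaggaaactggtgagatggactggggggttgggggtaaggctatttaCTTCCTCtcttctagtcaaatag
Fcgr2b, chr1:170976072-170976221, minus strand: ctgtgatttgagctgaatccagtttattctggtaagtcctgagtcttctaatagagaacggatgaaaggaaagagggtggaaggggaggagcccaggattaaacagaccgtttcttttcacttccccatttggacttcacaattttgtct
Fcgrt, chr7:45103823-45103972, minus strand: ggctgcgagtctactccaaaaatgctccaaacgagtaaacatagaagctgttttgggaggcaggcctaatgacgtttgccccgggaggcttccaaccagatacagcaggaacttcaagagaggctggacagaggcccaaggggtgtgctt
GAGGAAG occurred on either strand in 7.85% of 27025 genes in a window of this length and in 3 of the 6 Fc receptor genes, the activating chains Fcgr1, Fcgr3 and Fcgr4. It lay 56 to 50 bases before the start in Fcgr1, 16 to 10 in Fcgr3 and 23 to 17 in Fcgr4. TTCNNNGAA was found in 4.77% of genes and, of the 6, in Fcgr1 alone, 109 to 101 bases before its start. An ISRE core (GAAA, any 2 bases, GAAA) was held by 1.85% of genes and by Fcgr4 alone, and TGACGT, a CRE core, by 5.87% of genes and by Fcgrt alone. A loose κB pattern (GGG, any 5 bases, CC) was held by 38.6% of genes and by Fcgr3 (at a 2nd annotated start), Fcgr4, Fcgr2b and Fcer1g, and TATAAA by 8.89% of genes and none of the 6. All of them were searched on both strands, and the motifs were chosen after the promoters had been seen. A match describes letters in this window and not a bound site.

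Library depth was between 29689149 and 34037178 gene reads. The targeted gene Itgb2 measured 382, 420 and 379 CPM (read counts scaled to TMM-adjusted library size) in untreated CD18fl/fl cells and 120, 163 and 189 CPM in untreated CD18CD11c cKO cells. After LPS it measured 167, 171 and 267 CPM against 114, 89.7 and 119 CPM, so the groups did not overlap in either state and transcript from the locus persisted in the knockouts. All 13 dendritic cell markers listed were detected, with H2-Ab1 (MHC class II, on which the cells were isolated) between 4238 and 13259 CPM. Libraries with replicate number 3 stood apart in all 4 groups. They held 1.68 to 4.70 CPM of the macrophage marker Apoe against 40.6 to 2476 CPM in the other 8 libraries, 0.227 to 2.25 against 9.22 to 35.5 CPM of the dendritic cell marker Flt3, 6.25 to 29.4 against 41.3 to 132 CPM of the dendritic cell marker Dpp4 and 88.0 to 130.3 against 1.49 to 9.40 CPM of the pentraxin Ptx3. Other markers of the same cell types were higher in replicate 3. The dendritic cell markers Itgax and Irf4 held 284 to 680 against 30.8 to 210 CPM and 58.4 to 112 against 21.1 to 41.1 CPM. The macrophage marker Mertk held 31.2 to 101 against 4.66 to 25.3 CPM. All of these genes were picked out because of these values. Results below are given with and without replicate 3 where that changes a call.

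On a per-length scale (CPM per kilobase of exon), which allows comparison between genes, Fcer1g and Fcgr3 were the most abundant of the 6 in every group. In untreated CD18fl/fl cells the mean per-length level was 393 ± 78.6 (SD, n = 3) for Fcer1g and 336 ± 55.7 for Fcgr3, and the ranges of both overlapped. Fcgr2b (47.3 ± 11.7), Fcgrt (45.3 ± 16.5) and Fcgr1 (43.7 ± 20.7) followed, with overlapping ranges between neighbours. Fcgr4 was lowest at 13.3 ± 11.3, and its range still overlapped that of Fcgr1. After LPS, Fcer1g reached 699 ± 196 in CD18fl/fl cells, with no overlap to Fcgr3 at 166 ± 110, and Fcgrt was last at 10.5 ± 0.184. In untreated CD18CD11c cKO cells Fcgr3 (465 ± 95.9) and Fcer1g (385 ± 84.7) again overlapped, while Fcgr2b (26.8 ± 6.50) lay below Fcgrt (57.3 ± 20.3) without overlap. In LPS-treated CD18CD11c cKO cells Fcgr2b was last at 9.22 ± 2.10, next to Fcgrt at 10.8 ± 1.64, and both overlapped.

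**Figure D1:**
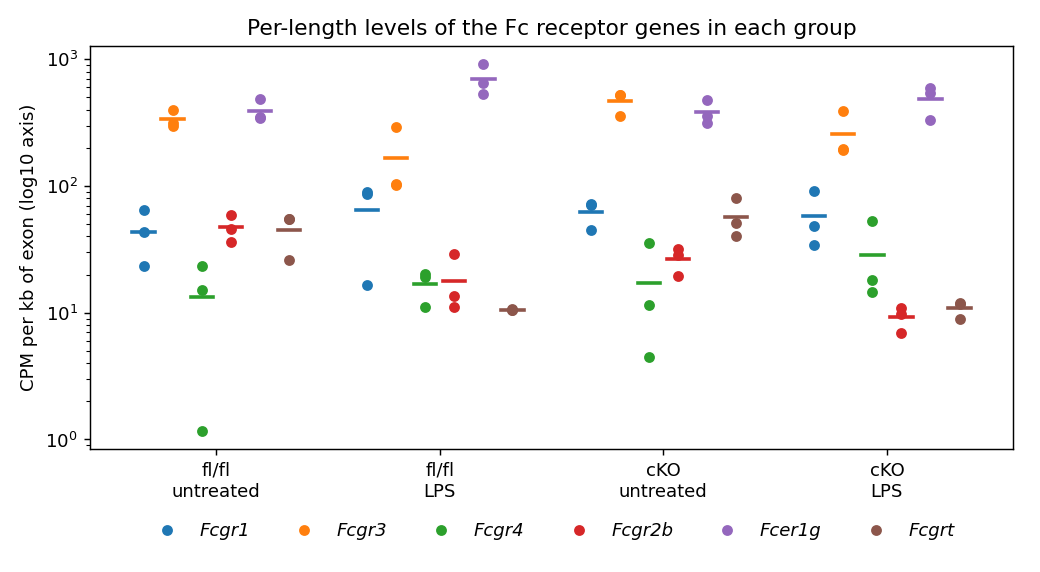
Level of each Fc receptor gene per kilobase of exon (CPM per kb, log10 axis) in the 4 groups, with 1 point per library and a bar at the mean of 3. Fcer1g and Fcgr3 lie on top in each group, Fcgrt is the lowest in LPS-treated CD18fl/fl cells, and Fcgr2b and Fcgrt are the lowest in LPS-treated CD18CD11c cKO cells.

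Within the activating α chains, Fcgr3 supplied most of the summed per-length level. Its share was 78.0% to 94.2% in untreated CD18fl/fl cells and 81.2% to 91.3% in untreated CD18CD11c cKO cells. In CD18fl/fl cells after LPS the share of Fcgr3 was 49.5%, 47.9% and 91.4% in replicates 1, 2 and 3, and that of Fcgr1 was 41.3%, 42.5% and 5.15%. Replicates 1 and 2 thus held nearly as much Fcgr1 as Fcgr3 after LPS, and replicate 3 did not. In LPS-treated CD18CD11c cKO cells Fcgr1 took 18.7%, 27.3% and 7.73% and Fcgr3 75.7%, 57.0% and 88.1%.

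The response to LPS was compared within each genotype. Fcgrt, the FcRn heavy chain, fell in both. It measured 98.2, 97.1 and 46.7 CPM in untreated CD18fl/fl cells and 18.6, 19.2 and 18.6 CPM after LPS. The CD18CD11c cKO libraries held 142, 91.8 and 72.2 CPM before and 21.2, 15.9 and 20.7 CPM after LPS. No LPS library reached an untreated one, and the LPS libraries of both genotypes lay within a narrow band although the untreated ones differed. The log2 fold change was -2.10 ± 0.33 (SE) in CD18fl/fl cells (edgeR quasi-likelihood test, adjusted p = 0.0261) and -2.44 ± 0.32 in CD18CD11c cKO cells (edgeR adjusted p = 0.0183), and Fcgrt was lower in 3 of 3 same-numbered pairs of each genotype. Without replicate 3 it was -2.37 and -2.75. The call rests on most libraries: leaving out untreated replicate 1 or 2 or LPS replicate 1 or 2 raised the edgeR adjusted p to between 0.111 and 0.132 in CD18fl/fl cells, where no gene of the whole table then passed, and to between 0.0637 and 0.108 in CD18CD11c cKO cells.

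B2m, the light chain of FcRn and of MHC class I, went the other way. It measured 2160, 1999 and 1379 CPM in untreated and 4252, 4822 and 2808 CPM in LPS-treated CD18fl/fl cells. The CD18CD11c cKO libraries held 1422, 1816 and 1325 CPM before and 2578, 3378 and 2235 CPM after LPS. The log2 fold changes of 1.10 ± 0.33 and 0.79 ± 0.26 did not pass the edgeR test (adjusted p = 0.106 and 0.143) but passed with replicate number as a block (1.10, adjusted p = 0.0209, and 0.79, adjusted p = 0.0179). As a within-library ratio per length, B2m exceeded Fcgrt 42.7- to 61.2-fold in untreated and 313- to 522-fold in LPS-treated CD18fl/fl cells. The knockouts gave 20.7 to 41.0 before and 223 to 439 after LPS.

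Fcgr2b, the inhibitory receptor, was also lower after LPS. In CD18fl/fl cells it measured 139, 175 and 227 CPM untreated and 51.6, 42.0 and 111 CPM after LPS. The knockout libraries held 74.6, 123 and 109 CPM untreated and 26.2, 41.7 and 37.5 CPM after LPS. The groups did not overlap in either genotype, and Fcgr2b was lower in 3 of 3 pairs of each. The decrease passed the test in CD18CD11c cKO cells, with a log2 fold change of -1.59 ± 0.31 (edgeR adjusted p = 0.0418). In CD18fl/fl cells it was -1.39 ± 0.42 with an edgeR adjusted p of 0.113, and with the replicate block it passed at -1.50 ± 0.27 (adjusted p = 0.0231). Without LPS-treated replicate 3 of CD18fl/fl it was -1.94 (edgeR adjusted p = 0.00939). The call in CD18CD11c cKO cells was lost without any of the untreated replicates or LPS-treated replicate 1 or 2, at edgeR adjusted p between 0.0685 and 0.147.

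Fcgr3, the most abundant α chain, had a lower mean after LPS in both genotypes. In CD18fl/fl cells it measured 509, 481 and 650 CPM untreated and 168, 165 and 476 CPM after LPS. The groups came close without overlapping, and replicate 3 held a far higher level after LPS than the other libraries. The log2 fold change was -1.01 ± 0.46 (edgeR adjusted p = 0.237) and -1.19 with the block (adjusted p = 0.0517). Without replicate 3, where 6140 of the 12924 genes of the whole table that were tested passed, it was -1.57 ± 0.16 (edgeR adjusted p = 1.57e-05). Among the knockouts it measured 577, 847 and 849 CPM untreated and 320, 313 and 636 CPM after LPS, and the groups overlapped. There the log2 fold change was -0.87 ± 0.38 (edgeR adjusted p = 0.243), -0.95 ± 0.25 with the block (adjusted p = 0.0373) and -0.91 with length and block (adjusted p = 0.0515). Without replicate 3 it was -1.28 ± 0.25 (edgeR adjusted p = 0.0200), and without LPS-treated replicate 3 alone -1.35 ± 0.29 (edgeR adjusted p = 0.0420).

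Fcer1g, the chain on which all activating α chains depend, measured 259, 260 and 362 CPM in untreated CD18fl/fl cells and 399, 486 and 684 CPM after LPS. These groups did not overlap, each pair was higher after LPS, and the log2 fold change of 0.84 ± 0.30 did not pass the test (edgeR adjusted p = 0.157, and 0.0521 with the block). Without replicate 3, where 6140 of 12924 genes passed, it passed at 0.77 ± 0.17 (edgeR adjusted p = 0.00326). Fcer1g in CD18CD11c cKO cells measured 236, 358 and 269 CPM untreated and 248, 444 and 408 CPM after LPS, which overlapped (0.30 ± 0.32, edgeR adjusted p = 0.643).

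Fcgr1 and Fcgr4 varied more between replicates than between conditions. Fcgr1 measured 167, 112 and 60.1 CPM in untreated and 223, 233 and 42.6 CPM in LPS-treated CD18fl/fl cells. It was higher after LPS in replicates 1 and 2 and lower in replicate 3. The log2 fold change was 0.56 ± 0.65 (edgeR adjusted p = 0.640). Without replicate 3, where 6140 of 12924 genes passed, it was 0.71 ± 0.20 (edgeR adjusted p = 0.0110). Fcgr1 in CD18CD11c cKO cells measured 183, 187 and 117 CPM untreated and 125, 239 and 88.7 CPM after LPS (-0.17 ± 0.39, edgeR adjusted p = 0.856). Fcgr4 measured 29.6, 18.9 and 1.47 CPM in untreated and 24.2, 25.5 and 14.03 CPM in LPS-treated CD18fl/fl cells, and 14.4, 44.9 and 5.61 CPM against 18.4, 66.7 and 23.0 CPM in CD18CD11c cKO cells. Its fold changes had SEs of 0.86 and 0.79 on the log2 scale and did not pass in either genotype in edgeR, with or without the block.

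**Figure D2:**
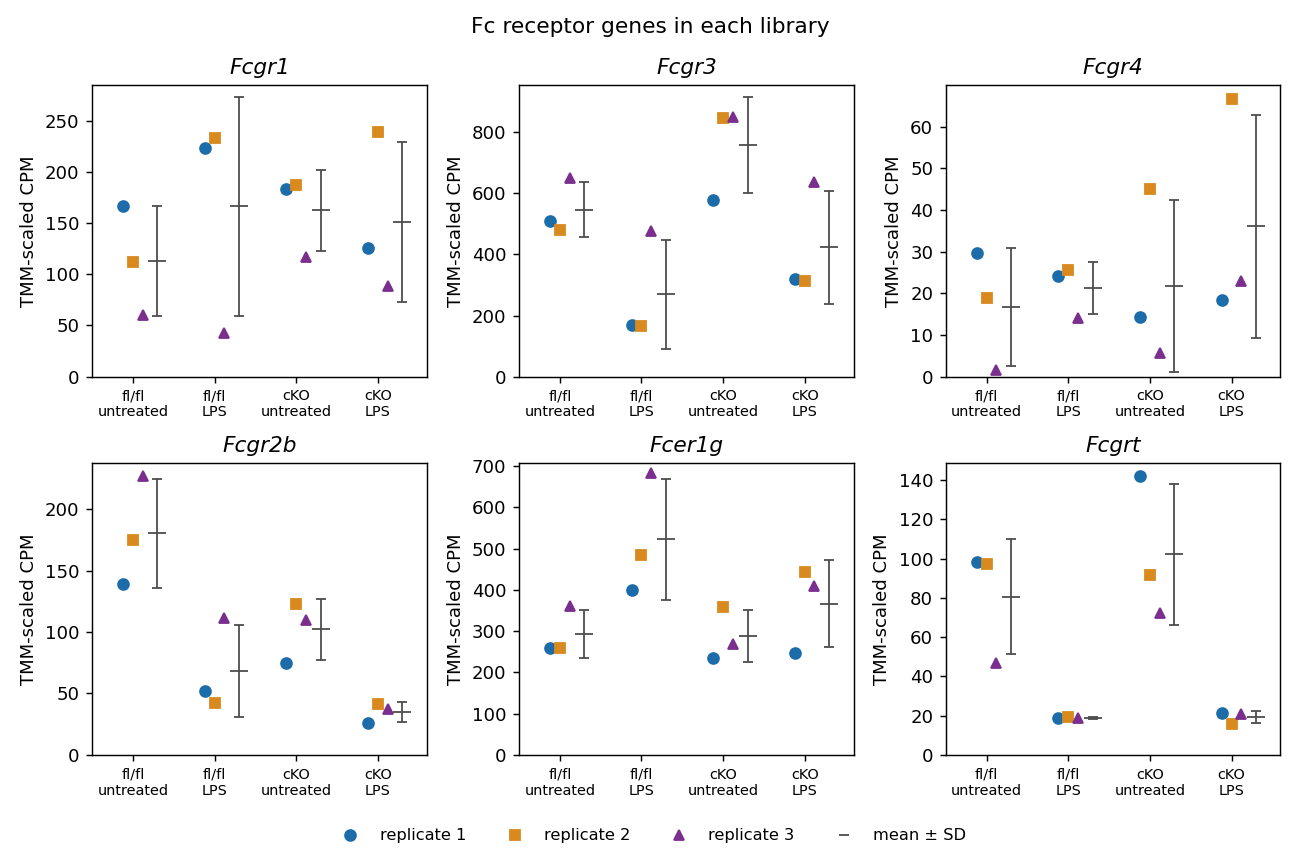
TMM-scaled CPM of the 6 genes in each library, by group, with symbols for replicate numbers 1 to 3 and the mean ± SD (n = 3) to the right of the points. Fcgrt falls to 15.9 to 21.2 CPM in all 6 LPS libraries, Fcgr2b is lower in each CD18CD11c cKO group than in the CD18fl/fl group of the same state, and replicate 3 is the highest in each group for Fcgr3 and the lowest for Fcgr1.

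In all, 1 of the 6 genes was called in CD18fl/fl cells, where 3.89% of 12744 genes tested passed, and 2 of 6 in CD18CD11c cKO cells, where 3.99% of 12687 genes passed. All of these calls were decreases, which made up 1.83% and 1.76% of the genes tested, and increases 2.06% and 2.23%. With the replicate block 2 of 6 passed in CD18fl/fl cells (12.8% of all genes, 6.43% as decreases) and 3 of 6 in CD18CD11c cKO cells (20.2% of all genes, 9.93% as decreases), again all decreases. The groups did not overlap for 4 of the 6 genes in CD18fl/fl cells and for 2 of 6 in CD18CD11c cKO cells, against 29.5% and 28.1% of all genes. In CD18fl/fl cells 3 of the 4 were lower and 1 higher (15.9% and 13.6% of all genes), and in CD18CD11c cKO cells both were lower (13.4%). Macrophages express Fcgr2b, Fcgr3 and Fcgrt as well as dendritic cells do. Of 15 macrophage markers, 5 fell in each genotype (C1qa and C5ar1 among them), and the median log2 fold change over the 15 was -2.12 in CD18fl/fl and -2.01 in CD18CD11c cKO cells, against -0.02 and -0.01 over all genes. Of the 15, 5 and 3 had values above 0. Cd14 went from a median of 204 to 504 CPM in CD18fl/fl and from 214 to 446 CPM in CD18CD11c cKO cells. Adgre1 went from 444 ± 42.5 to 609 ± 47.3 CPM and from 269 ± 76.7 to 300 ± 30.9 CPM in the respective genotype. The summed level of the 15 was 12953 to 40447 CPM in untreated and 10939 to 20010 CPM in LPS-treated CD18fl/fl cells, and 20255 to 69500 CPM and 13868 to 19148 CPM in CD18CD11c cKO cells, with all 15 detected. Much of this sum was Lyz2 alone. It held 6933 to 31111 CPM and 5095 to 12503 CPM in CD18fl/fl cells, and 14329 to 61335 CPM and 9708 to 14731 CPM in CD18CD11c cKO cells. Markers of other cells that carry Fc receptors had medians below 0 as well. The median log2 fold change was -3.92 and -2.27 over the neutrophil markers tested (7 and 8 of 12), -1.81 in each genotype over 6 B cell markers, and -1.01 and -0.79 over 7 monocyte markers, among which Ccr2 fell in both. Of these lists 1 and 1, 0 and 0, and 2 and 1 genes passed as decreases. Of the 7 monocyte markers, 2 and 3 had values above 0. Ly6c2 had log2 fold changes of 2.48 ± 0.86 and 2.78 ± 0.87 (edgeR adjusted p = 0.148 and 0.125). With the block 2 of the 7 rose, Ly6c2 and Plac8, and 2 fell in CD18CD11c cKO cells. In these bulk RNA samples fewer cells of such a type and less RNA per cell cannot be told apart. The part of such cells in the decreases was not tested.

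Several of these genes had a replicate 3 apart from the other libraries of its group. Fcgr1 was below both other replicates in all 4 groups, at 0.187 to 0.630 times their mean, and Fcgr4 was below both in 3 of the 4 groups. Fcgr3 was above both in all 4 groups, at 1.19 to 2.85 times their mean. Fcgrt was below both in each untreated group, at 0.478 and 0.617 times their mean. Summed monocyte markers were also lowest in replicate 3 of each group (127 to 234 CPM in those 4 libraries against 168 to 1188 CPM in the other 8), and the summed markers of B cells, which carry Fcgr2b as their only FcγR, were 2.51 to 5.26 CPM in replicate 3 against 9.70 to 147 CPM elsewhere. Summed mast cell and basophil markers (12 genes) went the other way. The sums were 95.9 to 184 CPM in replicate 3 against 19.0 to 53.0 CPM in the other 8 libraries. Cpa3 (15.5 to 115 against 0 to 5.94 CPM), Gata2 (22.7 to 49.6 against 4.45 to 11.2 CPM) and Hdc (8.58 to 83.5 against 0.233 to 6.00 CPM) were higher in replicate 3. Kit, of the same list, was lower there (0.578 to 2.62 against 5.99 to 29.3 CPM), and the ranges of Fcer1a, Mcpt8 and Prss34 overlapped. Mast cells and basophils carry Fcgr3, Fcgr2b and Fcer1g. Replicate 3 had the lowest B cell sum in each of the 4 groups. Fcgr2b in replicate 3 was highest of its group in CD18fl/fl cells of each state. In both CD18CD11c cKO groups it lay between the other replicates. The part of these cells in the levels was not tested.

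The genotypes were then compared within each state, which asks whether loss of β2 integrins shifts Fc receptor expression. Fcgr2b alone of the 6 had genotype groups that did not overlap, and it did so in both states. As a count, 1 of 6 is no more than the share over all genes in either direction, given below. In untreated cells its 74.6 to 123 CPM in CD18CD11c cKO lay below the 139 to 227 CPM of CD18fl/fl, and all 3 same-numbered pairs were lower in the knockout, by 0.90, 0.51 and 1.06 on the log2 scale. After LPS its 26.2 to 41.7 CPM in CD18CD11c cKO lay below the 42.0 to 111 CPM of CD18fl/fl, although the nearest libraries, both of replicate 2, were nearly level. The log2 fold change in untreated cells was -0.76 ± 0.27 without the block (edgeR adjusted p = 0.244) and -0.77 ± 0.15 with it (adjusted p = 0.0149). With exon length and the block both in the fit it was -0.64 (adjusted p = 0.0481). In LPS-treated cells it was -0.99 ± 0.42 (edgeR adjusted p = 0.518), -0.88 ± 0.28 with the block (adjusted p = 0.0920) and -0.74 with length and block (adjusted p = 0.135). The genotype groups did not overlap for 1 of the 6 genes in either state, against 24.8% of all genes in untreated and 17.6% in LPS-treated cells (13.1% and 8.09% as decreases).

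Fcgr3 was the counterpart. Its same-numbered pairs were higher in CD18CD11c cKO cells in 3 of 3 cases in both states, by 0.18, 0.82 and 0.38 untreated and 0.93, 0.92 and 0.42 after LPS on the log2 scale. In untreated cells the fitted change was 0.53 ± 0.24 (edgeR adjusted p = 0.317, and 0.0624 with the block). In LPS-treated cells it was 0.62 ± 0.53 (edgeR adjusted p = 0.760) and rose with the block, at 0.73 ± 0.15 (adjusted p = 0.0304). That call was lost once exon length was in the fit as well, at 0.54 (adjusted p = 0.0921). Without replicate 3 it was 0.89 ± 0.18 in LPS-treated cells (edgeR adjusted p = 0.0407).

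Fcgr1 was higher in untreated CD18CD11c cKO cells with the block (0.67 ± 0.19, adjusted p = 0.0433; 0.61 and 0.0685 with length as well), and in all 3 pairs. After LPS its pairs split, lower in replicate 1, level in replicate 2 and higher in replicate 3, and the fitted change was -0.17 ± 0.65. Fcer1g has the shortest exon length of the 6 (748 bases), and its genotype difference depended on whether length was fitted. In untreated cells it was 0.03 ± 0.24 and turned to -0.67 with length and block (adjusted p = 0.0443). In LPS-treated cells it was -0.54 ± 0.34, and -1.11 with length and block (adjusted p = 0.0185), with lower values in 3 of 3 pairs. Fcgr4 and Fcgrt did not pass in either state under any of these fits. The Fcgrt levels after LPS were 18.6 to 19.2 CPM in CD18fl/fl and 15.9 to 21.2 CPM in CD18CD11c cKO cells.

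Cell type markers moved with the genotype too. None passed without the block. With it, of 15 macrophage markers 4 were lower and 2 higher in untreated CD18CD11c cKO cells (8.16% and 12.1% of all genes). After LPS 3 were lower (3.16% of all genes). Adgre1 (F4/80) was lower by 0.70 ± 0.19 and 1.05 ± 0.15 and Cd68 by 0.87 ± 0.18 and 1.13 ± 0.16 on the log2 scale in the respective state, while C1qa (0.73 ± 0.18) and C1qb (0.77 ± 0.15) were higher in untreated cells. Of 13 dendritic cell markers 6 passed in untreated cells (20.2% of all genes), 5 of them higher (12.1%), H2-Ab1 and Cd86 among them. The 1 that was lower was Flt3, with a median of 26.4 CPM in CD18fl/fl and 10.4 CPM in CD18CD11c cKO cells. After LPS 2 of the 13 were higher (6.98% of all genes). The part of these cells in the Fc receptor differences was not tested.

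Without the block, edgeR called 0 of the 6 genes in either state and 0 genes of the whole table (0% of 12876 and of 12441 genes tested). At an unadjusted p under 0.05, 2159 (16.8%) and 1212 (9.74%) genes passed, and DESeq2 called 538 and 150 genes, none of the 6 among them. With the block 2 of 6 passed in untreated cells (20.2% of all genes), Fcgr1 as an increase (12.1%) and Fcgr2b as a decrease (8.16%), and 1 of 6, Fcgr3, as an increase in LPS-treated cells (10.1%, of which 6.98% higher and 3.16% lower). The term that asks whether the LPS response differs between the genotypes called 0 of the 6 and 0 of 13752 genes in edgeR with or without the block (97 and 272 genes, 0.705% and 1.98%, at an unadjusted p under 0.05), and 0 of the 6 in DESeq2, which called 1 gene without and 130 genes with the block. For Fcgr2b it was -0.14 ± 0.52 and for Fcgrt -0.30 ± 0.45 on the log2 scale, so the larger decrease of either in CD18CD11c cKO cells was within its error.

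**Figure D3:**
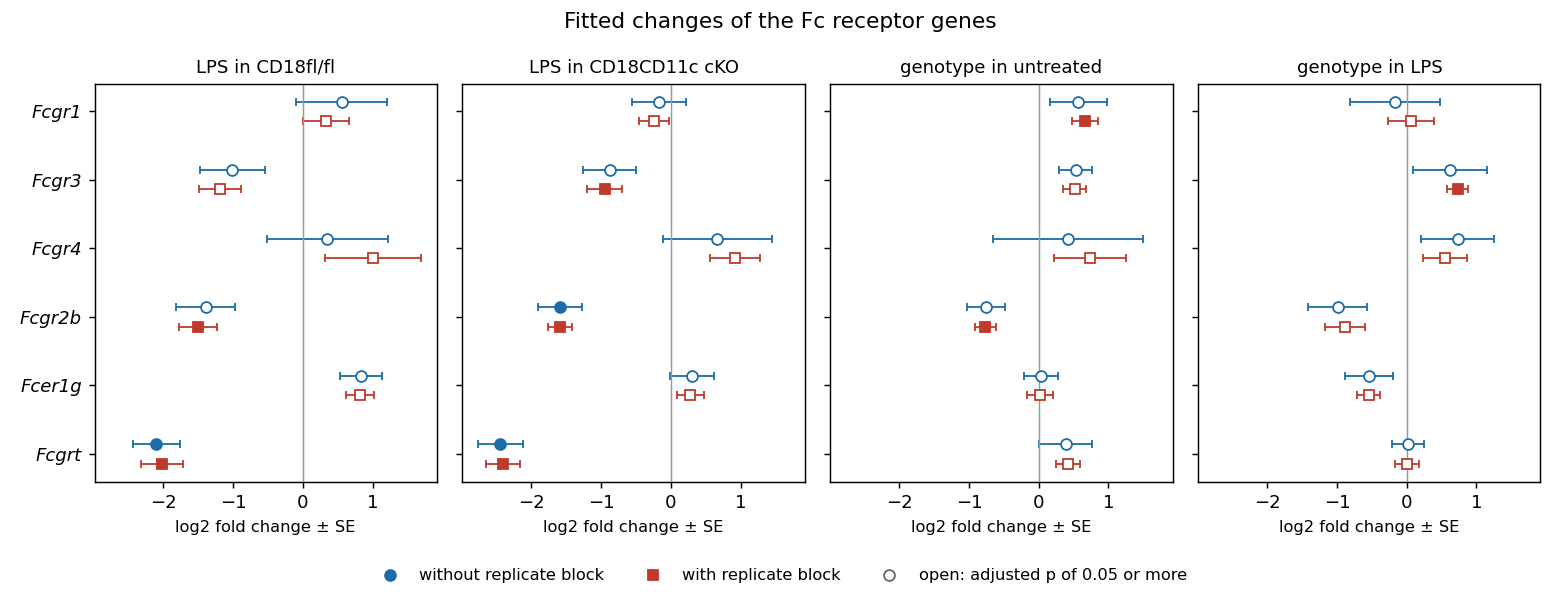
Log2 fold change ± SE of the 6 genes in the 4 comparisons, without (circles) and with (squares) replicate number as a block, and filled where the edgeR adjusted p was under 0.05. Fcgrt and Fcgr2b lie far to the left in both LPS comparisons, and Fcgr2b lies left and Fcgr3 right of 0 in both genotype comparisons.

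Because a ratio within a library does not depend on the scaling between libraries, the activating α chains (Fcgr1, Fcgr3 and Fcgr4, summed per length) were set against Fcgr2b. In untreated CD18fl/fl cells the activating chains exceeded Fcgr2b 10.99-, 7.70- and 7.10-fold, and after LPS 15.4-, 19.2- and 10.97-fold. These ranges just overlapped. In CD18CD11c cKO cells the ratio was 22.3, 19.5 and 19.9 untreated and 37.7, 30.8 and 45.0 after LPS, above every CD18fl/fl library of either state. The 3 untreated knockout libraries agreed closely, in contrast to their single-gene levels. Fcgr3 over Fcgr2b alone was 6.43 to 8.57 in untreated and 7.63 to 10.03 in LPS-treated CD18fl/fl cells, and 16.2 to 18.2 and 17.6 to 39.7 in CD18CD11c cKO cells. The ratios are scores over the selected genes, so no test is attached to them. They still carry any effect of exon length that differs between libraries. With length added to the blocked fit, the genotype change in untreated cells went from 0.52 to 0.21 for Fcgr3 and from -0.77 to -0.64 for Fcgr2b.

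The signalling chain was set against the α chains it serves in the same way. Fcer1g over the summed activating chains was 0.865, 0.984 and 1.14 in untreated CD18fl/fl cells and 2.55, 3.06 and 2.86 after LPS. In CD18CD11c cKO cells it was 0.722, 0.763 and 0.630 untreated and 1.28, 1.76 and 1.23 after LPS. No 2 of the 4 groups overlapped, and the knockouts were below CD18fl/fl in both states. Fcer1g also serves other receptors, and the ratio does not count them. The limit of exon length holds here too: the untreated genotype change of Fcer1g went from 0.02 with the block to -0.67 with length and block.

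**Figure D4:**
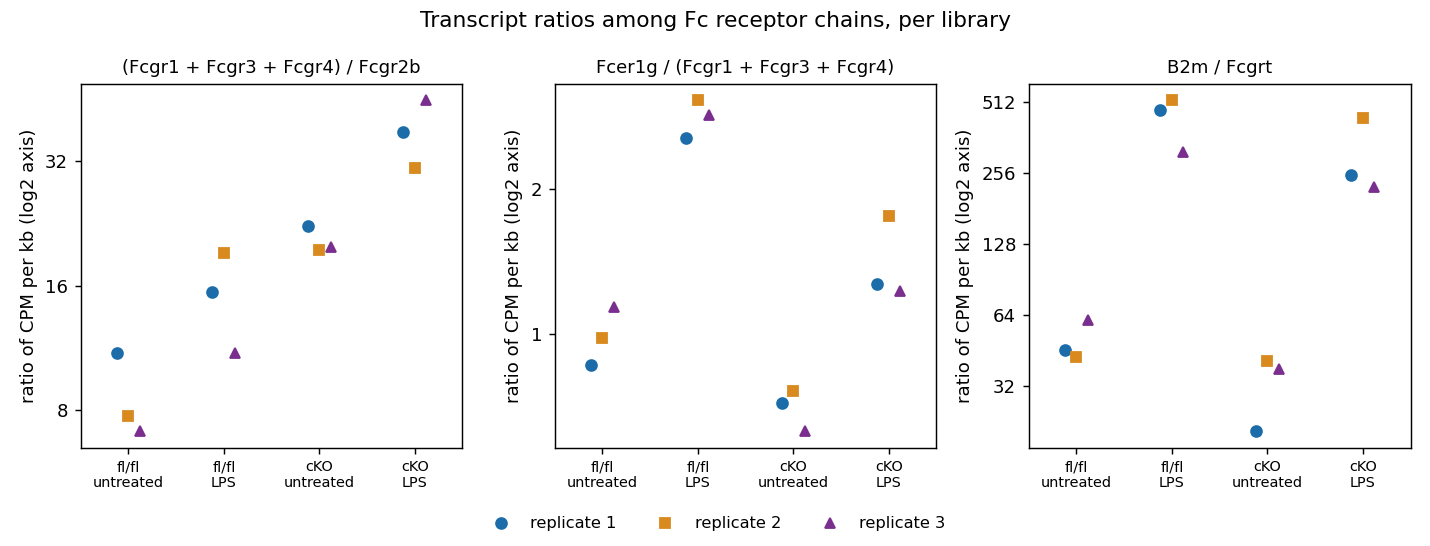
Within-library ratios of per-length levels (log2 axes) for the activating α chains over Fcgr2b, Fcer1g over the activating α chains, and B2m over Fcgrt, with 1 symbol per library and replicate number. The activating over inhibitory ratio lies at 7.10 to 19.2 in CD18fl/fl and 19.5 to 45.0 in CD18CD11c cKO libraries.

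Receptors that borrow the Fcer1g chain for their own signals were counted next. Of 13 listed, 10 are in the tables and 8 were tested. With LPS 2 of 8 rose in each genotype (2.06% and 2.23% of all genes) and none fell. Clec4e (Mincle, a receptor for fungal and mycobacterial glycolipids) rose from 103 ± 99.0 to 2132 ± 450.5 CPM in CD18fl/fl cells (log2 fold change 4.38 ± 0.73, edgeR adjusted p = 0.0313) and from 125 ± 112 to 3669 ± 405 CPM in CD18CD11c cKO cells (4.82 ± 0.67, adjusted p = 0.0210). Gp6, the platelet collagen receptor, was at no more than 0.251 CPM in any untreated library and at 2.03 to 28.3 and 7.41 to 64.0 CPM after LPS (edgeR adjusted p = 0.0482 and 0.0251). Between genotypes none passed without the block. With it Clec4n (Dectin-2) was higher in CD18CD11c cKO cells in both states (0.95 ± 0.17 and 0.74 ± 0.14 on the log2 scale, adjusted p = 0.0102 and 0.0226), and Clec4e was higher after LPS (0.77 ± 0.18, adjusted p = 0.0425).

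Of 14 other Fc receptors and relatives, 7 or 8 were tested in the LPS comparisons. Fcrls, an Fc receptor-like gene of myeloid cells, fell from 144 ± 60.9 to 6.05 ± 2.65 CPM in CD18fl/fl cells (log2 fold change -4.57 ± 0.55, edgeR adjusted p = 0.0160) and from 154 ± 23.8 to 6.52 ± 2.62 CPM in CD18CD11c cKO cells (-4.63 ± 0.38, adjusted p = 0.00916). Trim21, the cytosolic Fc receptor that sends antibody-coated particles to the proteasome, rose from 9.50 ± 0.725 to 32.7 ± 4.91 CPM and from 10.2 ± 1.65 to 23.4 ± 2.23 CPM (1.79 ± 0.23 and 1.15 ± 0.25, edgeR adjusted p = 0.0162 and 0.0483). The IgE receptor chains Fcer1a and Ms4a2 stayed at or under 1.36 CPM in all libraries, and Fcrl6 was at 0 reads in all 12, where 3 reads would be 0.0881 to 0.101 CPM. None of the 9 tested in untreated and the 7 tested in LPS-treated cells passed between genotypes, with or without the block.

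Downstream of the ITAM, 34 kinases and adaptors were tested. With LPS 1 fell in CD18fl/fl cells (1.83% of all genes), and 1 rose and 1 fell in CD18CD11c cKO cells (2.23% and 1.76%). The Src family kinase Fgr fell in both, by 2.08 ± 0.28 and 2.82 ± 0.50 on the log2 scale (edgeR adjusted p = 0.0162 and 0.0342), and Pik3r1, the regulatory subunit of PI3K, rose in CD18CD11c cKO cells (1.20 ± 0.24, adjusted p = 0.0450). The median log2 fold change of the 34 was 0.05 and 0.11. Between genotypes 27 of the 34 had values below 0 in untreated and 30 of 34 in LPS-treated cells, with medians of -0.24 and -0.36 against -0.05 and -0.11 over all genes. None passed without the block. With it 8 fell and 1 rose in untreated cells (8.16% and 12.1% of all genes) and 2 fell in LPS-treated cells (3.16%). The exchange factor Vav1 fell in both states, by 0.77 ± 0.17 and 0.85 ± 0.17 (adjusted p = 0.0216 and 0.0252 with the block), and Syk itself measured 179 ± 55.3 and 103 ± 15.7 CPM in untreated cells and 176 ± 26.0 and 120 ± 7.12 CPM after LPS.

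Of 10 effectors and partners of the inhibitory arm, 2 fell with LPS in each genotype, where 1.83% and 1.76% of all genes did. The adaptors Dok2 and Dok3, which restrain Ras signalling, fell in both, with log2 fold changes of -2.94 ± 0.32 and -2.43 ± 0.29 in CD18fl/fl cells (edgeR adjusted p = 0.0138 and 0.0160) and -3.11 ± 0.40 and -2.67 ± 0.39 in CD18CD11c cKO cells (adjusted p = 0.0173 and 0.0217). Dok1, of the same family, had log2 fold changes of 1.83 ± 0.55 and 1.57 ± 0.46 (edgeR adjusted p = 0.111 and 0.105) and rose with the block in both genotypes (adjusted p = 0.0203 and 0.00258). With the block 1 of the 10 rose and 4 fell in each genotype. Of all genes 12.8% and 20.2% passed with it, 6.43% and 9.93% as decreases. Between untreated genotypes 5 of the 10 had values above 0 (median 0.01), and none passed without the block. With it 1 was higher, Dok2 (0.67 ± 0.16, adjusted p = 0.0277), and 2 were lower (12.1% and 8.16% of all genes). Inpp5d (SHIP1), the phosphatase recruited by FcγRIIb, measured 72.9 ± 27.4 CPM in untreated CD18fl/fl and 44.4 ± 20.9 CPM in untreated CD18CD11c cKO cells, a difference that passed with the block only (-0.69 ± 0.15, adjusted p = 0.0180, against 0.457 without). Of 30 actin genes of Fc receptor phagocytosis tested, 2 fell in CD18fl/fl cells (Gsn and Pak1) and 3 in CD18CD11c cKO cells (Was, Gsn and Pak1). The median was -0.20 and -0.14. Between genotypes none of the 30 passed without the block, and 20 of 30 had values below 0 in each state (medians -0.20 and -0.22). With the block 5 were higher and 4 lower in untreated cells (12.1% and 8.16% of all genes). After LPS 2 were higher and 1 lower (6.98% and 3.16%), the last being Was (-0.65 ± 0.16, adjusted p = 0.0459). The Arp2/3 subunits Arpc5 and Arpc3 were higher in CD18CD11c cKO cells with the block in both states, by 1.16 ± 0.15 and 1.01 ± 0.15 untreated and 1.08 ± 0.13 and 0.91 ± 0.13 after LPS (adjusted p between 0.00368 and 0.0102). Exon length was not part of these fits.

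Tyrobp (DAP12), the other ITAM chain of myeloid cells, gave a further contrast with Fcer1g. It measured 918 ± 102 CPM in untreated and 712 ± 129 CPM in LPS-treated CD18fl/fl cells, and 1630 ± 171 and 889 ± 166 CPM in CD18CD11c cKO cells. In CD18CD11c cKO cells it fell with LPS by 0.93 ± 0.17 with the block (adjusted p = 0.0116, against 0.0893 without), and in untreated cells it was higher in the knockout by 0.88 ± 0.17 on the log2 scale (adjusted p = 0.0127 with the block, against 0.122 without). Exon length was not part of these fits of Tyrobp. Adding it to the blocked fit took the untreated genotype change of Fcer1g from 0.02 to -0.67.

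For each of the 6 genes, the genes with the most similar pattern of log2 CPM over the 12 libraries were looked up among 7357 expressed genes. The coefficients are a description, since libraries share their group and replicate number. Fcgrt was followed most closely by Cers5, Pak1 and Arhgap4 (Pearson r = 0.97 each), and Fcgr2b by Man2c1, Sulf2 and Fxyd5 (r = 0.97, 0.96 and 0.96). Fcgr3 was nearest to Fdx2, Rpl37 and Snrpf (r = 0.96, 0.96 and 0.95), Fcgr1 to Fabp4, Tinf2 and Mrpl43 (r = 0.94, 0.93 and 0.93), and Fcgr4 to Samd9l, Marcks and Ms4a6c (r = 0.93, 0.92 and 0.92). Fcer1g had the weakest neighbours, Mfsd7a, Tspyl2 and Eaf1 (r = 0.89, 0.89 and 0.87). Fabp4 measured 28.3 ± 19.3 and 79.6 ± 77.7 CPM in untreated and LPS-treated CD18fl/fl cells. Man2c1, a cytosolic mannosidase, ran through the groups in the order of Fcgr2b, with 24.1 ± 3.603 and 14.1 ± 7.04 CPM in CD18fl/fl and 16.9 ± 1.96 and 9.21 ± 1.70 CPM in CD18CD11c cKO cells.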

How the data were processed

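BMDC RNA was sequenced as single-end reads of 59 bases. Per the paper's methods the authors mapped and counted reads per gene in CLC Genomics Workbench with default settings on GRCm39; the submitters' processing notes list GRCm38, and the deposited coordinates match GRCm39. The authors deposited raw read counts per gene, not normalized, in 1 table per library, together with exon length in bases. Strand of counting is not given in the sources used here. Total gene reads were used, of which 95.1% to 96.2% were unique. A count of 3 reads corresponds to 0.0881 to 0.101 CPM, which covers counting error only.

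Counts were tested with edgeR 4.0.16 (R 4.3.3) (quasi-likelihood test, TMM factors), on the 6 libraries of each comparison and on 12 for the interaction, for genes passing a minimum count of 10, with p-values adjusted by Benjamini-Hochberg across every gene tested and a threshold of 0.05. SE is the log2 fold change divided by the square root of F. CPM levels use TMM over all 12 libraries. The replicate numbers of the labels were checked for pairing before calls were compared: deviations from group means correlated between 0.265 and 0.716 in every same-numbered pair and between -0.571 and 0.334 in the others, so the number was also fitted as a block. The negative values all involved replicate 3, and replicate 1 with replicate 2 gave 0.154 to 0.334. Deviations from a group mean sum to 0, which favours negative values. The check thus sets replicate 3 apart and does not show that replicates 1 and 2 are matched by number. The sources used here do not state what a number stands for. Exon length was fitted as a lowess offset (span 0.3). DESeq2 1.42.0, other scalings, filters and libraries left out served as alternatives. The procedure was tested on simulated data. The Fc receptor genes, their lists and the tests were chosen with earlier results of these data known. Of other lists, up to 4 genes per comparison with the smallest p were eligible to be named, plus Itgb2, B2m and the 3 genes most like each member; Syk, Inpp5d and individual markers named as values were among these or were chosen after their values were seen. No 2 libraries were copies of each other.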

Additional observations from a re-analysis of the deposited data

How the results depend on the processing

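Of the fitted changes of single Fc receptor genes under the alternatives, 508 kept direction and side of the threshold, 36 passed newly, 13 no longer passed and 43 turned sign, the last mostly among values near 0. Called genes of the 6 with LPS in CD18fl/fl went from 1 to 2 under DESeq2, the replicate block, length offset with block and the fit on all 12 libraries, 3 under library size alone with block and 4 under DESeq2 with block. Of all genes, 496 of 12744 passed there without these changes. Under the settings in that order 1794 of 18927, 1627 of 12744, 1738 of 12744, 1068 of 13752, 1621 of 12744 and 3131 of 18927 passed. With LPS in CD18CD11c cKO the called genes of the 6 went from 2 to 3 under the block (20.2% of all genes) and library size alone with block and to 4 under DESeq2 with block, where Fcgr4 passed as an increase (adjusted p = 0.0499). Between untreated genotypes they went from 0 to 2 (block, 20.2% of all genes), 2 (length offset with block), 3 (DESeq2 with block) and 1 (library size alone with block), and after LPS from 0 to 1 (10.1% of all genes), 1, 3 and 2. The replicate block changed no other call of the 6 genes than those given with the results. Leaving out libraries gave 0 to 5, 0 to 3, 0 to 0 and 0 to 1 calls in these comparisons, the 5 and the 1 without replicate 3 (2 against 2 libraries). In the fit with 5 calls, 6140 of 12924 genes passed. DESeq2 and library size alone, both with the block, were added after seeing the data.

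On the log2 scale, the genotype difference in untreated cells turned to -0.029 for Fcgr4 (length offset), to -0.0078 for Fcgrt (library size alone) and, for Fcer1g, to -0.37 (library size alone, with or without block), -0.64 (length offset), -0.67 (length offset with block) and -0.030 (all 12 libraries). After LPS it turned to 0.056 (block), 0.087 (length offset with block) and 0.090 (DESeq2 with block) for Fcgr1, and for Fcgrt to -0.23 (library size alone), -0.25 (the same with block), -0.0021 (no filter), -0.12 (length offset) and -0.14 (length offset with block). With libraries left out, values crossing 0 ranged from -0.19 to 1.06 (Fcgr4, LPS in CD18fl/fl), -0.62 to 0.080 and -0.081 to 1.80 (Fcgr1 and Fcgr4, LPS in CD18CD11c cKO), -0.70 to 1.13 and -0.18 to 0.26 (Fcgr4 and Fcer1g, untreated genotypes). They ranged from -0.66 to 0.13, -0.060 to 1.04 and -0.064 to 0.14 (Fcgr1, Fcgr4 and Fcgrt, genotypes after LPS), and in the interaction from -0.24 to 0.77 (Fcgr3), -0.45 to 1.497 (Fcgr4), -0.42 to 0.29 (Fcgr2b) and -0.57 to 0.017 (Fcgrt). Library size alone moved the mean of Fcgr3, Fcgr2b and Fcer1g in untreated CD18fl/fl cells to 680.0, 225 and 365 CPM and that of Fcgrt in LPS-treated CD18CD11c cKO cells to 16.1 CPM, and it put the median over all genes at -0.44 to -0.23 on the log2 scale in the 4 comparisons. Beyond what these settings are built from, the cause was not tested. Fcgr4, at 55 to 1485 reads, is the most limited by depth.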
